A study of Bos taurus with 8 samples.

Results

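Mitochondrially encoded respiratory chain genes were followed in day 8 bovine blastocysts. The genes were COX1 (ENSBTAG00000043561), COX2 (ENSBTAG00000043556), COX3 (ENSBTAG00000043560), CYTB (ENSBTAG00000043550), ND1 (ENSBTAG00000043558) and ATP6 (ENSBTAG00000043584). They were picked by identifier, by a rule that uses no measured value but was written with earlier results of these data known, and all 6 were found among the 8297 genes of the table. The table lists Ensembl identifiers only, and the symbols are the names under which these identifiers are known. COX2 stands here for mitochondrial cytochrome c oxidase subunit II, not for the prostaglandin synthase PTGS2 that shares the abbreviation.

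Blastocysts were produced in vitro from oocytes matured for 22 h in serum-free medium with EGF. Oocytes of the lycopene group matured with 0.2 μM lycopene, a carotenoid antioxidant, whereas control oocytes received no supplement. Lycopene was given to the oocytes only, and RNA was taken from the resulting embryos 8 days after insemination. Each group consisted of 4 pools (replicates 1 to 4), and a pool combined 3 hatched, 5 expanded and 2 normal blastocysts. Each value is thus an average over embryos and cell types, in which fewer cells of a type and less RNA per cell cannot be told apart. The labelled embryo stage could not be checked against marker genes, because no symbols were paired with the other identifiers. Nothing states that the replicates came from separate oocyte collections, and p-values therefore measure only the spread between these pools.

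The respiratory chain of the inner mitochondrial membrane passes electrons from NADH to oxygen and stores the energy as a proton gradient, which ATP synthase uses to make ATP. Most of its subunits are encoded in the nucleus, but a few core subunits are still encoded by the circular mitochondrial genome, which the embryo inherits from the oocyte. That genome is copied little during early cleavage, and its transcription increases towards the blastocyst stage, when demand for oxidative phosphorylation grows. Its mRNAs are cut from long joint transcripts, mostly at the tRNAs that lie between them, and receive short poly-A tails.

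The RefSeq annotation of a later cattle assembly (ARS-UCD2.0, used here for names and gene order only) lists 13 protein genes, 2 rRNA genes and 22 tRNA genes on the mitochondrial genome. The 6 genes cover all 4 complexes that have mitochondrially encoded subunits. ND1, the first protein gene in that order, encodes a membrane subunit of complex I. CYTB, the last in the order, encodes the cytochrome b of complex III. COX1, COX2 and COX3 encode the catalytic core of complex IV, which reduces oxygen to water. ATP6 encodes the subunit of ATP synthase that forms its proton path. COX2, ATP8, ATP6 and COX3 follow each other in this order, without another protein gene between them. ATP8 and ATP6 overlap and share a transcript, so counts of ATP6 cannot be separated from those of the joint ATP8/ATP6 mRNA. The nuclear genome holds copies of mitochondrial sequence, and how such reads were split is not given in the sources used here. The other 7 mitochondrial protein genes and the nuclear subunits were not analysed here, since they could not be paired with identifiers.

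Deposited for each gene was a normalized count, the count divided by the size factor of its pool. Every value was a whole multiple of the smallest positive value of its pool, so whole counts were recovered for 100% of the values. These counts summed to 349465 to 1570448 per control pool and 882413 to 3302689 per lycopene pool, and the largest size factor was 35.9 times the smallest. Control replicate 1 had by far the largest total and size factor among the control pools. The library kit counts transcripts at their poly-A end, so counts are not scaled by gene length, and comparisons between genes below are of counts. Counts of the 6 genes ranged from 816 to 28830 per pool, far above the 3 counts taken as the smallest usable signal. The 95% Wilson interval of each gene's share of a pool's counts reached at most 0.0406 percentage points to either side. Intervals cover counting error only. UMIs were processed before counting, but the values do not show whether a count is a molecule or a read, and reads copied by PCR would make these intervals too narrow.

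Together the 6 mRNAs made up a few percent of each pool's counts, and the share was lower on average in the lycopene group. In the control pools, replicates 1 to 4, the summed share was 4.58%, 3.57%, 3.36% and 4.17% (95% Wilson intervals 4.54% to 4.61%, 3.52% to 3.62%, 3.31% to 3.40% and 4.10% to 4.23%). In the lycopene pools it was 3.29%, 3.92%, 3.13% and 2.43% (3.25% to 3.33%, 3.89% to 3.95%, 3.11% to 3.15% and 2.41% to 2.46%). The highest value belonged to control replicate 1 and the lowest to lycopene replicate 4, and the groups overlapped between 3.36% and 3.92%. The mean was 3.92% ± 0.558 (SD, n = 4) for control and 3.19% ± 0.610 (SD, n = 4) for lycopene, a difference of -0.72 percentage points. Without lycopene replicate 4 the difference was -0.47 percentage points, and without control replicate 1 it was -0.51. The sum, a score over genes picked with earlier results known, was given no test.

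Among the genes with the most counts, COX1 had the third highest mean share over the 8 pools, COX3 the sixth, COX2 the seventh and ND1 the ninth. The remaining 6 of the 10 highest genes were ENSBTAG00000043567, ENSBTAG00000043570, ENSBTAG00000026199, ENSBTAG00000010347, ENSBTAG00000005211 and ENSBTAG00000014534, whose names were not paired with the identifiers here. ENSBTAG00000043567 held 11.9% to 26.5% and ENSBTAG00000043570 held 4.82% to 13.8% of a pool's counts, both far more than COX1. Every share of the mitochondrial mRNAs is therefore taken of a total in which these 2 genes together held 20.5% (control replicate 1) to 34.9% (lycopene replicate 4).

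**Figure D1:**
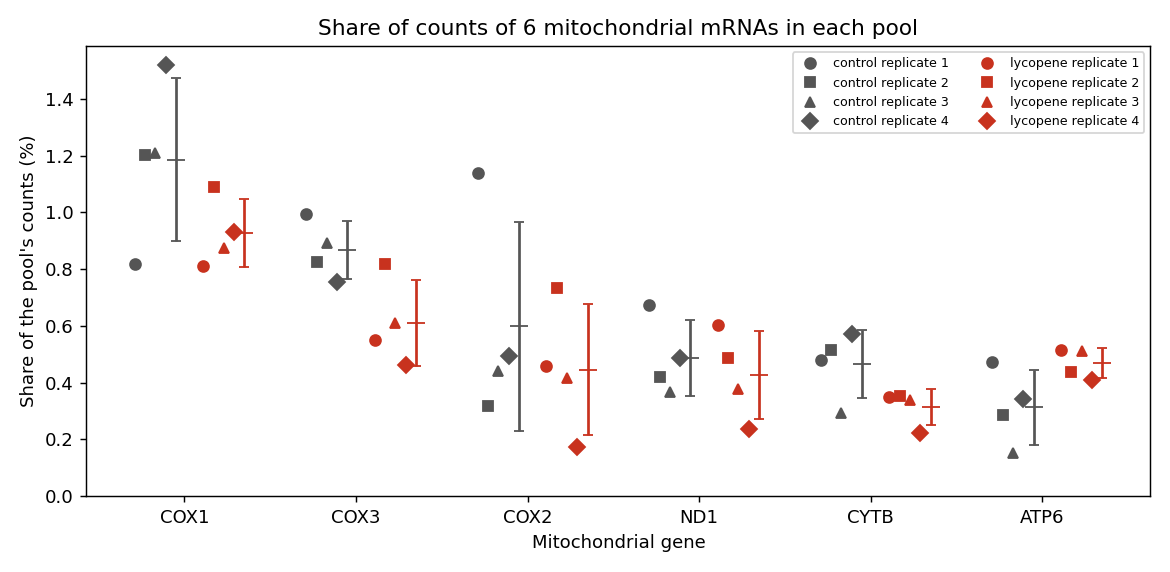
Share of each pool's counts (%) taken by each of the 6 mitochondrial mRNAs, 1 point per pool (grey, control; red, lycopene; the symbol gives the replicate), with the mean and SD of the 4 pools beside the points. COX3 and CYTB lie mostly lower in the lycopene pools, ATP6 lies mostly higher, and every pair of groups overlaps.

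Of the complex IV mRNAs, COX1 and COX3 had the highest mean shares of the set in both groups. COX1, the subunit that holds the oxygen-reducing centre, had 12824, 6224, 6479 and 5306 counts in the control pools, which were 0.817%, 1.20%, 1.21% and 1.52% of the totals. In the lycopene pools it had 7154, 13388, 28830 and 14935 counts, which were 0.811%, 1.09%, 0.873% and 0.929%. Its rank among all genes was 3 to 5 in every pool. Only control replicate 1 among the control pools fell into the range of the lycopene pools. The mean share was 1.19% ± 0.287 for control and 0.926% ± 0.120 for lycopene (SD, n = 4; two-sided exact permutation test, p = 0.143). The difference was -0.26 percentage points, and -0.15 without control replicate 4.

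COX3, a structural subunit of the same complex, took 0.996%, 0.826%, 0.892% and 0.753% of the counts in the control pools. In the lycopene pools it took 0.550%, 0.818%, 0.611% and 0.464%. Lycopene replicate 2 was the only lycopene pool inside the control range, and control replicate 4 the only control pool inside the lycopene range. The mean share was 0.867% ± 0.103 for control and 0.610% ± 0.151 for lycopene (SD, n = 4; two-sided exact permutation test, p = 0.0571), the smallest p among the 6 shares. These p-values are not adjusted, 6 such tests were made, and the smallest p that 4 pools against 4 allow is 0.0286.

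COX2, the subunit that accepts electrons from cytochrome c, was the most variable of the set. Its share was 1.14% in control replicate 1, against 0.319%, 0.442% and 0.495% in control replicates 2 to 4. In the lycopene pools it was 0.460%, 0.733%, 0.418% and 0.172%. It was the third highest gene of control replicate 1 and ranked 41 in lycopene replicate 4. The groups overlapped widely, with means of 0.598% ± 0.367 and 0.446% ± 0.230 (SD, n = 4; two-sided exact permutation test, p = 0.571). Without control replicate 1 the difference turned from -0.15 to 0.028 percentage points.

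CYTB, the complex III subunit, took 0.480%, 0.516%, 0.294% and 0.572% of the counts in the control pools. Its shares in the lycopene pools were 0.348%, 0.352%, 0.340% and 0.221%. Control replicate 3 lay below lycopene replicates 1 to 3, whereas the other control pools lay above all lycopene pools. The mean share was 0.465% ± 0.121 for control and 0.315% ± 0.063 for lycopene (SD, n = 4; two-sided exact permutation test, p = 0.114).

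ND1, the complex I subunit, took 0.674%, 0.421%, 0.368% and 0.487% in the control pools and 0.604%, 0.488%, 0.379% and 0.238% in the lycopene pools. Both groups spanned most of the same range, with means of 0.488% ± 0.134 and 0.427% ± 0.156 (SD, n = 4; two-sided exact permutation test, p = 0.60). The sign of this difference depended on single pools: it was 0.0018 percentage points without control replicate 1 and 0.0027 without lycopene replicate 4, against -0.060 with all pools.

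ATP6, the ATP synthase subunit, was alone in the set in having a higher mean share in the lycopene group, although its mean normalized count was not higher. It had 7403, 1492, 816 and 1197 counts in the control pools, which were 0.471%, 0.288%, 0.152% and 0.343% of the totals. In the lycopene pools it had 4550, 5375, 16845 and 6578 counts, which were 0.516%, 0.438%, 0.510% and 0.409%. Its rank among all genes was 10, 23, 83 and 25 in the control pools and 9, 14, 9 and 11 in the lycopene pools. Control replicate 1 again lay inside the lycopene range, and the other 3 control pools lay below it. The mean share was 0.313% ± 0.132 for control and 0.468% ± 0.053 for lycopene (SD, n = 4; two-sided exact permutation test, p = 0.0857). The difference was 0.15 percentage points, and 0.10 without control replicate 3.

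None of the 6 shares parted the groups. The shares of only 2.42% of the 6777 genes tested did so, and 8 of the 119 other genes with no pool under 50 counts. At such rates, none among 6 genes does not set them apart.

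The order of the mRNAs was read from their ratios within a pool, which use neither the size factors nor the totals. By mean share over the 8 pools the order was COX1, COX3, COX2, ND1, ATP6 and CYTB. COX1 exceeded COX3 in 7 of 8 pools, by up to 2.02 times, and fell below it only in control replicate 1, at 0.820 times. COX3 exceeded COX2 in 7 of 8 pools (0.876 to 2.70 times). From there on the neighbours did not differ beyond their spread: COX2 exceeded ND1 in 5 of 8 pools, ND1 exceeded ATP6 in 6 of 8, and ATP6 exceeded CYTB in 4 of 8. The mean log2 ratio of ATP6 to CYTB was -0.025 with an SD of 0.727 (n = 8 pools).

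The position of ATP6 in this order went with the group. ATP6 had the lowest mean share of the 6 in the control group and the third highest in the lycopene group. Of the summed counts of the 6 mRNAs, ATP6 made up 10.3%, 8.06%, 4.54% and 8.22% in the control pools, and 15.7%, 11.2%, 16.3% and 16.8% in the lycopene pools. Every lycopene pool thus lay above every control pool, with means of 7.78% ± 2.39 and 15.0% ± 2.59 (SD, n = 4). The difference was 7.21 percentage points, and it stayed between 6.13 and 8.49 when each pool was left out in turn. This measure was chosen after its values were seen and carries no test. By the same measure, the ratio to the summed counts of the 6 mRNAs, 8 of the 119 other genes with no pool under 50 counts (6.72%) had all lycopene pools above all control pools, so a gap of this kind was not peculiar to ATP6.

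The other 5 mRNAs overlapped between the groups as parts of the sum. COX1 made up 17.9%, 33.6%, 36.0% and 36.4% in the control pools and 24.7%, 27.8%, 27.9% and 38.2% in the lycopene pools, and control replicate 1 stood below the rest. In that pool COX2 took the largest part, 24.9%, against 7.06% to 18.7% elsewhere. COX3 made up 16.7% to 26.6% of the sum over the 8 pools.

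**Figure D2:**
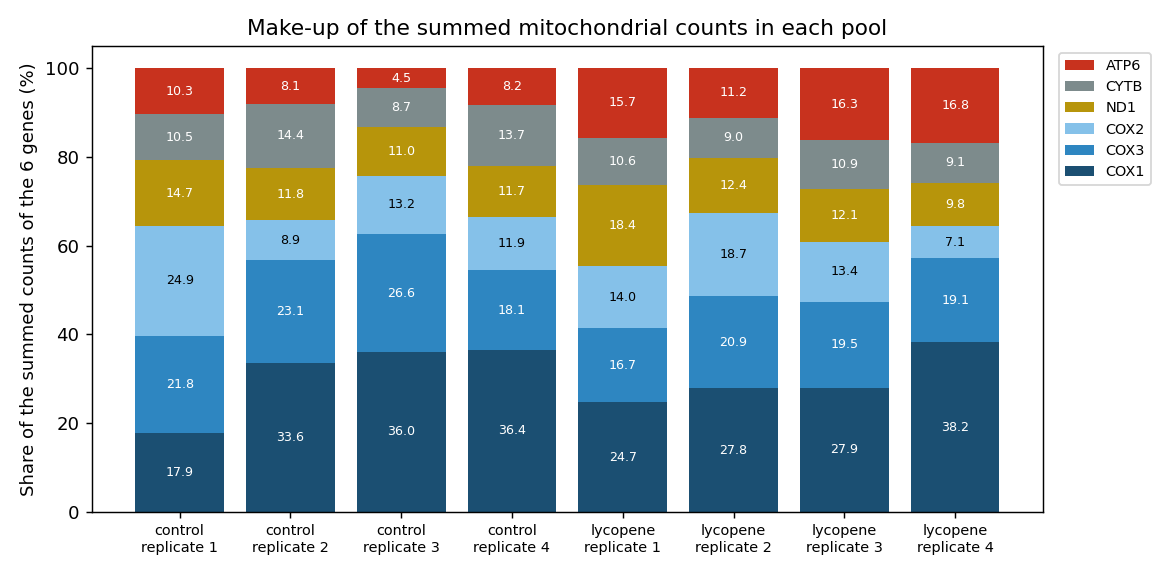
Make-up of the summed counts of the 6 mRNAs in each pool (%, bars add up to 100%; numbers give each gene's part). ATP6, at the top of each bar, takes 11.2% or more in every lycopene pool and 10.3% or less in every control pool.

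Among the 15 pairs of members, the ratio parted the groups in 3, and ATP6 belonged to all 3. Among the 7021 pairs of the 119 other genes it parted the groups in 597 (8.5%). Pairs that share a gene are not independent, and no test was made. COX3, the protein gene that follows ATP6 on the genome, had 2.11 to 5.86 times its counts in the control group and 1.07 to 1.87 times in the lycopene group. ND1 had 1.42 to 2.42 times the counts of ATP6 in the control group and 0.581 to 1.17 times in the lycopene group. The ratio of ATP6 to CYTB was 0.518 to 0.983 in control and 1.24 to 1.85 in lycopene replicates. The 3 pairs are therefore not separate observations. ATP6 against COX2, its other neighbour in the set, overlapped between the groups.

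**Figure D3:**
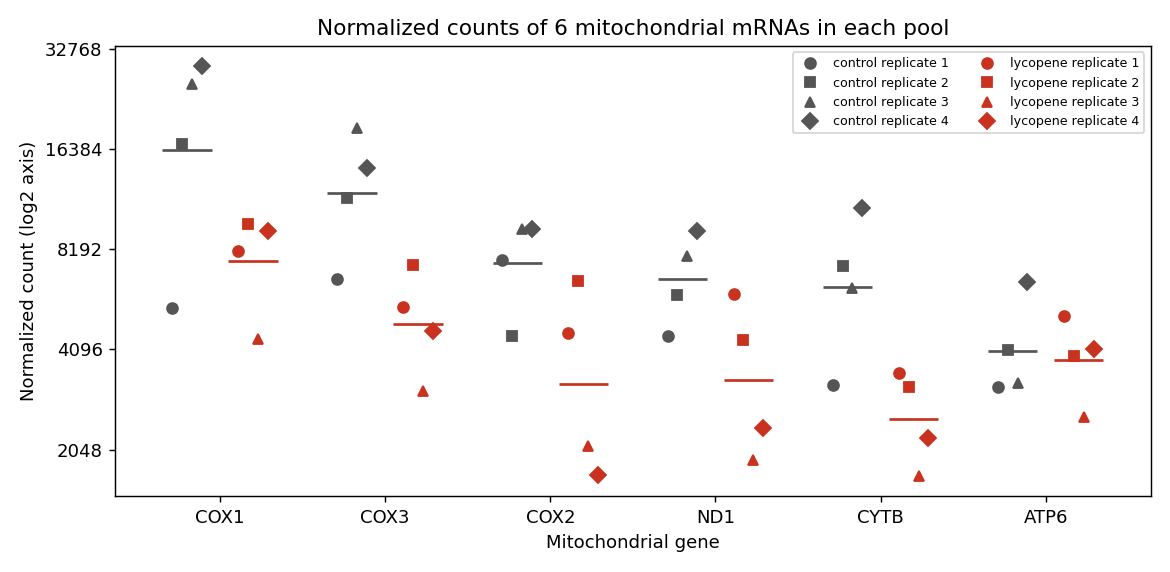
Normalized counts of the 6 mRNAs (log2 axis), 1 point per pool, with a line at the mean of the log2 values of the 4 pools of a group. For all genes but ATP6 the lycopene mean lies well below the control mean, and control replicate 1 is the lowest control pool for every gene but COX2.

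On the scale of the deposited normalized counts, the differences of the 5 genes other than ATP6 were larger than in shares, with the lycopene group lower. COX1 stood at 5454, 16978, 25703 and 28988 normalized counts in control replicates 1 to 4, against 8084, 9761, 4384 and 9303 in lycopene replicates 1 to 4. For COX3 the control pools stood at 6653, 11681, 18971 and 14379, and the lycopene pools at 5479, 7321, 3067 and 4642. CYTB had 3205, 7294, 6244 and 10916 against 3473, 3150, 1708 and 2216. In each of these genes the 3 control pools other than replicate 1 lay above all lycopene pools. ND1 ranged from 4503 to 9299 in control and from 1903 to 6020 in lycopene pools, and COX2 from 4506 to 9446 and from 1720 to 6563. ATP6 ranged from 3149 to 6540 in control and from 2562 to 5142 in lycopene pools, with means of 4249 ± 1583 and 3930 ± 1060 (SD, n = 4).

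For the test, limma was fitted to log2(normalized count + 1) of 6777 genes. Genes whose normalized count averaged below 1 were left out, and all 6 mitochondrial genes stayed in. The log2 difference, lycopene minus control, was -1.11 for COX1 (95% interval -2.04 to -0.18), -1.20 for COX2 (-2.41 to 0.01), -1.30 for COX3 (-2.32 to -0.28), -1.32 for CYTB (-2.60 to -0.029), -1.01 for ND1 (-2.23 to 0.21) and -0.090 for ATP6 (-1.38 to 1.2). A gene was called if its adjusted p (Benjamini-Hochberg) did not exceed 0.05 and its log2 difference was 1 or more in either direction, and none of the 6 was called. The adjusted p over all tested genes was 0.784 for COX1, COX2, COX3, CYTB and ND1 and 0.973 for ATP6. Over all tested genes limma called 0 (0.0%), with 208 genes (3.07%) at an unadjusted p under 0.05. By this rule edgeR on the recovered counts also called 0, with 1926 of the 6777 genes at an unadjusted p under 0.05. The 2 results of 0 differ in kind. The smallest adjusted p was 0.549 with limma but 7.73e-05 with edgeR, where the required log2 difference kept the number at 0. DESeq2 on the recovered counts called 296 of 2473 genes with an adjusted p (12.0%), and again none of the 6.

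At an unadjusted p under 0.05, limma gave a lower level with lycopene for COX1, COX3 and CYTB, 3 of the 6 genes, against 0.989% of all tested genes in that direction. Without control replicate 1 the count was 4 of 6, and without lycopene replicate 3 it was 0. It was also 0 of 6 with limma on equal totals, on equal upper quartiles, without the filter on low values or without the trend, and with edgeR and DESeq2, and it was 1 of 6 with limma's robust option. Over all genes, in either direction, an unadjusted p under 0.05 was reached by 212 of 6503 genes without control replicate 1, by 162 of 6314 without lycopene replicate 3, by 183 to 281 genes in the other limma fits named and by 771 of 4949 genes with DESeq2. The 6 genes have far more counts than most genes tested, and among the 119 other genes with no pool under 50 counts 5 met the same condition. The groups did not part in normalized counts for any of the 6, and they parted for only 2.51% of all tested genes, so this does not set the 6 apart.

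The size of these differences was set largely by the scaling of the pools. Relative to the total counts, the authors' size factors were on average 0.77 higher on the log2 scale in the lycopene than in the control pools, and this amount enters the normalized difference of every gene alike. With the pools scaled to equal totals, the log2 difference was -0.33 for COX1, -0.43 for COX2, -0.53 for COX3, -0.54 for CYTB and -0.23 for ND1, and it turned to 0.68 for ATP6. With equal upper quartiles of the positive counts the 5 lower genes ran from -0.43 to -0.13 and ATP6 was at 0.79, and with edgeR they ran from -0.40 to -0.062 and ATP6 was at 0.75. The direction of ATP6 thus differed between scalings, while the distance between ATP6 and the other genes did not depend on them within limma. Over all tested genes, limma gave a median log2 difference of 0.52 with the authors' size factors and 0.97 with equal totals. For the 6 genes the median was -1.15 and -0.38. The median over all genes depended on the fit. With the authors' size factors it was 0.92 when 0.1 was added before the log2, and 0.32 when 5 was added. With DESeq2 it was -0.38. The median of the 6 genes was -1.15 to -1.17 in these fits.

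**Figure D4:**
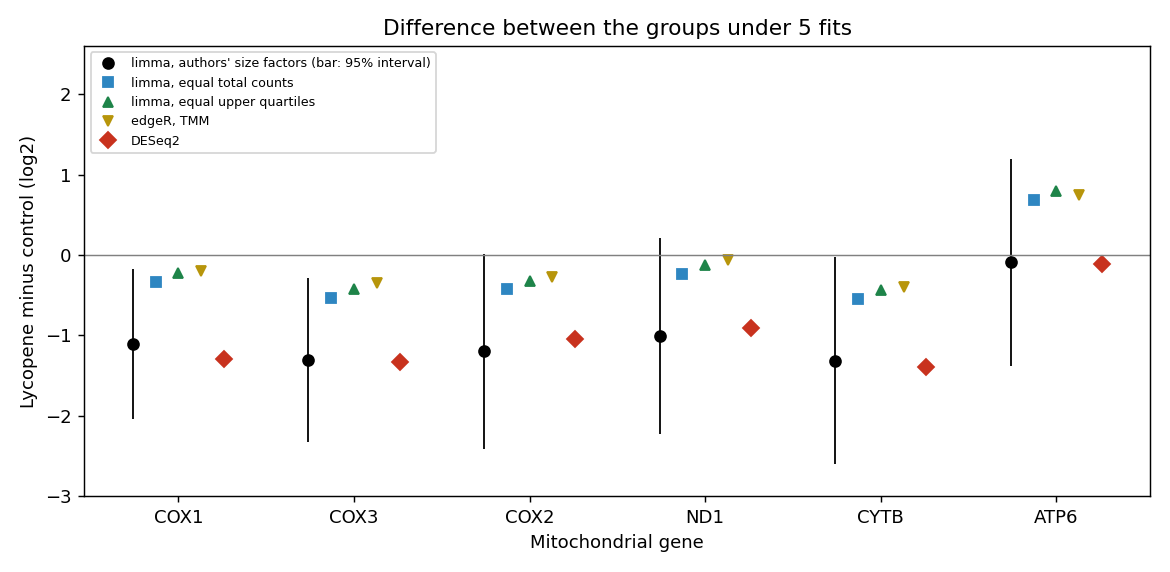
Lycopene minus control difference (log2) of each mRNA under 5 fits: limma on the authors' normalized counts (black, with 95% interval), limma with pools scaled to equal totals or equal upper quartiles, edgeR and DESeq2. The 5 genes other than ATP6 lie below 0 in every fit and nearer to 0 without the authors' size factors, where ATP6 lies above 0.

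The genes with no pool under 50 counts, 125 with the mitochondrial ones, give the nearest comparison, because most other genes had few counts in some pools. The 119 others were not paired with names and may include further mitochondrial genes. The normalized level of 101 of the 119 other genes was lower with lycopene, and their median log2 difference was -0.82, against -1.15 for the 6 mitochondrial mRNAs. In shares, the median log2 difference of the 119 genes was -0.051, with 63 lower, against -0.38 for the 6. Between 32 and 48 of the 119 genes had a lower share difference than each of COX1, COX2, COX3, CYTB and ND1, and 95 of the 119 had a lower one than ATP6. The mitochondrial mRNAs thus lay inside the range of these genes.

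Shares of the mitochondrial mRNAs other than COX2 varied less over the 8 pools than those of most genes in this set, and the share of COX2 varied more. The coefficient of variation of the share was 23.4% for COX1, 24.6% for COX3, 30.3% for ND1, 30.7% for CYTB, 31.9% for ATP6 and 56.5% for COX2. The median over the 119 other genes was 49.9% (14.5% to 103%). Only 5 of them varied less than COX1, and 74 varied less than COX2. The ratio between 2 mitochondrial mRNAs had a median SD of 0.61 on the log2 scale over the pools, against 1.22 for pairs of the 119 other genes. Genes with more counts have less counting error, and no test was made of these spreads.

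**Figure D5:**
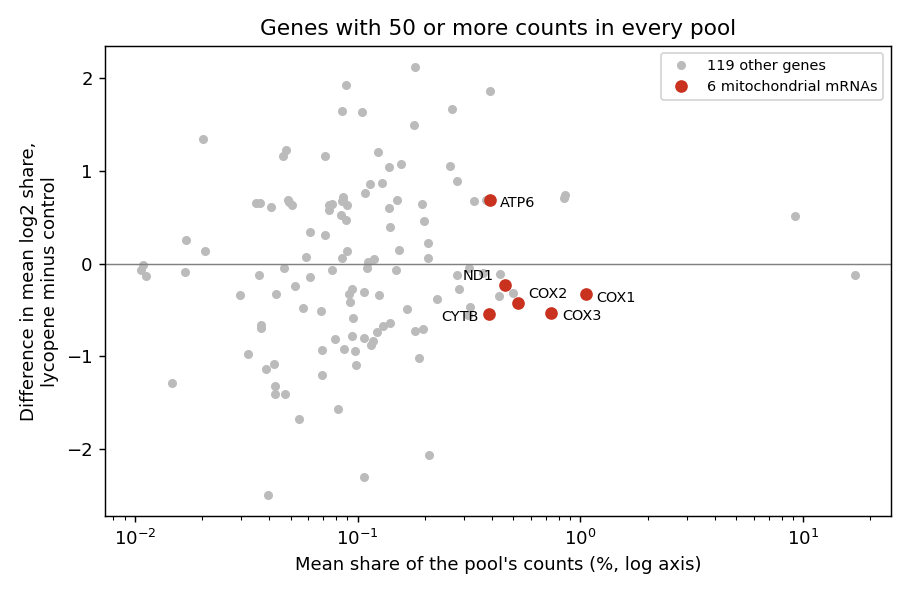
Mean share of a pool's counts (%, log axis) against the difference in mean log2 share, lycopene minus control, for the genes with no pool under 50 counts. The 6 mitochondrial mRNAs (red) lie to the right, 5 of them between -0.54 and -0.23 and ATP6 at 0.68, within the spread of the 119 other genes (grey).

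The members followed each other unequally over the pools. Pearson's r between a gene's log2 normalized count and the mean of the other 5 over the 8 pools was 0.947 for CYTB and ND1, 0.931 for COX3, 0.853 for COX1, 0.747 for COX2 and 0.532 for ATP6. All values of a pool share its size factor, which raises such correlations: over the 119 other genes the median r with the mean of the 6 was 0.665. The genes most like the mean of the 6 were ENSBTAG00000009908 (r = 0.978), ENSBTAG00000002648 (0.951), ENSBTAG00000012683 (0.943), ENSBTAG00000052337 (0.934) and ENSBTAG00000006383 (0.931). On log2 shares, which do not use the size factors, r was 0.899 for ENSBTAG00000009908 and 0.927 for ENSBTAG00000002648, and 0.703, 0.688 and 0.811 for the other three, within a range of -0.676 to 0.927 over the 119 genes. The 5 genes were picked from the 119 for their correlation over the same pools, so these values describe them and are no independent check.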

How the data were processed

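RNA was measured in 4 control and 4 lycopene pools, grouped by the treatment labels. The authors trimmed reads with Trim Galore 0.6.6, mapped them to ARS-UCD1.2 with STAR 2.7.9a, processed UMIs (molecule tags) with UMI-tools 1.1.1 and then made the count tables with RSEM 1.3.1. The deposited signal is the count divided by a DESeq2 median-ratio size factor. Each value was divided by the smallest positive value of its pool, and 100% came out whole (tolerance 1e-06).

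limma 3.58.1 (eBayes with trend, pseudocount 1, no block, R 4.3.3) was the main test. edgeR 4.0.16 and DESeq2 1.42.0 (filtering target 0.05) were alternatives, and scripts were tested on simulated data. Shares were compared with exact permutation tests in scipy 1.17.1. Members, gene lists and tests were chosen with earlier results of these data known. Named genes were the members, the 10 with the highest mean share, and the 5 whose log2 normalized counts correlated best with the members' mean among genes with no pool under 50 counts. Lists by symbol (other mitochondrial genes, nuclear subunits, cell type markers) could not be applied: 0 identifiers matched the RefSeq table used here.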

Additional observations from a re-analysis of the deposited data

Results flagged for a closer look

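For each measure, the 4 pools of a group were searched for a value far from the rest with Dixon's criterion (95%), 38 times in all, and chance gives about 1 such value in 20 groups, or 1.9 here. It singled out 2 values. CYTB in lycopene replicate 4 took 0.221% of the pool's counts, below the other lycopene pools at 0.340% to 0.352% (gap over range 0.910). COX1 in control replicate 1 made up 17.9% of the summed counts of the 6 mRNAs, below the other control pools at 33.6% to 36.4% (gap over range 0.849). Both pools also held the extremes of the summed share, and the reason was not tested.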

How the results depend on the processing

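Of 238 values of the 6 genes and their sum under other settings, 230 had the same sign and side of the threshold or, without a test, moved by less than 1 SD. Changes of sign were not counted where no test was made. With each pool left out, the difference as a part of the sum ran from -5.72 to 0.48 percentage points for COX1. It ran from -3.35 to 1.96 for COX2 and from -0.85 to 2.01 for ND1. No gene of the 6 was called in any fit. The level of ATP6 turned from -0.090 to 0.68 with equal totals, 0.79 with equal upper quartiles, 0.75 with edgeR, 0.14 without control replicate 4 and 0.10 without lycopene replicate 3 (log2). When each pool was left out in turn, the log2 difference ran from -1.63 to -0.83 for COX1, -1.54 to -0.90 for COX2, -1.59 to -1.08 for COX3, -1.64 to -1.05 for CYTB, -1.30 to -0.74 for ND1 and -0.23 to 0.14 for ATP6. The share difference ran from -0.38 to -0.15 percentage points for COX1, -0.25 to 0.028 for COX2, -0.33 to -0.21 for COX3, -0.21 to -0.11 for CYTB, -0.12 to 0.0027 for ND1 and 0.10 to 0.21 for ATP6; the exact test cannot pass 0.05 with 3 pools in a group. The number of genes called over the whole table was 0 with limma, 0 to 1 when each pool was left out, 296 with DESeq2 and 41 with DESeq2 and the replicate block. The replicate numbers come from the sample labels, and deviations of same-numbered pools correlated at -0.0051 to 0.0026. Correlations over genes cannot show whether same-numbered pools came from a shared run, so a pairing of the pools stays unknown. With the block limma called 0 genes and the adjusted p of the members was 0.828 to 0.981. Over all fits the lowest adjusted p of a member was 0.238, for COX1 without control replicate 1. The causes of these shifts were not tested.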
